A study of Mus musculus with 24 samples.

Results

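The GTPases of the immunity-associated protein family (GIMAP) were followed as 8 of the 17464 genes of the deposited table, namely Gimap1, Gimap3, Gimap4, Gimap5, Gimap6, Gimap7, Gimap8 and Gimap9. Their rows were found by matching the Ensembl identifiers to these symbols, a rule that used no measured value. The libraries came from 3 subsets of splenic regulatory T (Treg) cells, 1 library per subset and mouse, in 4 young mice of 2 months and 4 old mice of 26 months, all labelled WT C57BL/6JRccHsd. Resting (rTreg) cells were sorted from the CD44- gate, activated (aTreg) cells from the CD44+ gate and KLRG1+ (kTreg) cells by KLRG1, which gave 24 libraries in 6 groups of 4. The comparisons ask how levels differ between subsets and with age. Values are normalized counts, the reads of a gene divided by the size factor of the library, and are not divided by gene length. A bulk library cannot tell fewer cells of a kind from less RNA per cell.

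GIMAP proteins bind GTP, are found mainly in lymphocytes and sit largely on internal membranes. Gimap1 and Gimap5 are needed for mature T cells to persist, and loss of Gimap5 causes lymphopenia in rats and mice. Gimap3 is the closest relative of Gimap5, Gimap4 has been linked to T cell death, Gimap6 binds a protein of the autophagy machinery, and Gimap8 carries several GTPase domains in 1 chain.

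The gated genes were checked in the RNA. Klrg1 was between 16559 and 41561 normalized counts in kTreg libraries and at most 357.5 elsewhere. Cd44 was between 1628 and 3756 in rTreg, between 2932 and 6441 in aTreg and between 4859 and 6496 in kTreg libraries, so rTreg and aTreg libraries overlapped in it. Foxp3, the defining factor of Treg cells, was between 13151 and 37793 in all libraries except old aTreg mouse 2, where it was 5080, against 16925 to 19813 in the other old aTreg libraries. In young kTreg mouse 4, 4913 genes were listed at 0, against 642 to 1192 in the other young kTreg libraries. These 2 libraries stand apart from their groups, so a result that passes the adjusted p with them and not without them, or the reverse, is given both ways. Markers of other cells were also measured. The summed level of 5 monocyte and macrophage genes was between 9813.5 and 25936 in old rTreg and between 530.1 and 7713 in young rTreg libraries, with none of the 5 at 0 throughout. The 6 B cell genes summed to 15404.5 in young rTreg mouse 2, the highest of all libraries, where the lowest was 489.7. That library also had the highest CD8 T cell (2184.5) and erythroid (6656.5) sums. Young mouse 2 had the highest B cell sums of its group in aTreg (8381.3) and kTreg cells (6781.6) too. The 2 libraries above were set apart for Foxp3 and for genes at 0, not for these markers. Fits without young rTreg mouse 2 are given below for Gimap1, Gimap4, Gimap6, Gimap7 and Gimap9.

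The 8 genes lie side by side on mouse chromosome 6, at chr6:48624143-48747826 of GRCm39, a stretch of 123.7 kb. In order along the chromosome they are Gimap8, Gimap9, Gimap4, Gimap6, Gimap7, Gimap1, Gimap5 and Gimap3. Gimap6 and Gimap3 are read from the minus strand and the other 6 from the plus strand. The shared core of the family is the P-loop, the stretch of the GTPase domain that holds the phosphates of GTP. It was found in every reading frame, 1 time in 7 of the genes and 3 times in Gimap8. The coding sequence around it is shown for all 8 genes because it is the clearest sign of their kinship, with the 8 codons of the P-loop in capitals and 4 codons on each side.
Gimap1: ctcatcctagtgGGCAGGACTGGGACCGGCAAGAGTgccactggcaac
Gimap3: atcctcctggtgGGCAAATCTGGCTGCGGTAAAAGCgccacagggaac
Gimap4: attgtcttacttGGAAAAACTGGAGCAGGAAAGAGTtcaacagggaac
Gimap5: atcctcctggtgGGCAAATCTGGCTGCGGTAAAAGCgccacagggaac
Gimap6: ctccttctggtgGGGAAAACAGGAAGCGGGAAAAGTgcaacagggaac
Gimap7: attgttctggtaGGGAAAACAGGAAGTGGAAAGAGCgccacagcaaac
Gimap8, the first of its 3: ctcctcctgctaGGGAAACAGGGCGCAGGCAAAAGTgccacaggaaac
Gimap8, its middle one: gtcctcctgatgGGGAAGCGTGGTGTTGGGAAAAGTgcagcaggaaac
Gimap8, its last one: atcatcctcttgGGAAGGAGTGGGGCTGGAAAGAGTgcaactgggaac
Gimap9: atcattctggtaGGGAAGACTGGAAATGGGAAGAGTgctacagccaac
Gimap3 and Gimap5 were identical over these 48 bases, while the other stretches differed from that of Gimap3 at 10 to 17 bases. Over the whole coding sequence Gimap3 and Gimap5 shared 87.1% of alignment columns, inner gaps included, and Gimap7 and Gimap9 65.1%. The other 26 pairs shared between 31.1% and 56.9%. Pairs with Gimap8 were between 31.1% and 34.2%. Its 2064 coding bases, against 873 to 984 in the others, leave many of those columns as gaps. The longest run shared by the spliced transcripts of Gimap3 and Gimap5 was 140 bases, and no window of 150 bases, the read length, was shared by any pair. The 2 genes are thus those whose reads could be split most easily, and how reads with several matches were treated is not given in the sources used here.

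All 8 GIMAP genes were abundant in every library. The fewest reads behind any value were 1568 and the most 82112, and the 8 genes together took between 0.546% and 0.888% of the reads on listed genes. Per kilobase of exon, a scale on which genes can be compared, Gimap3 (14442 normalized counts per kb) and Gimap4 (14249) were highest, at ranks 26 and 29 of 16540 genes. Gimap6 (5940), Gimap7 (4033.5), Gimap1 (3062), Gimap9 (2710), Gimap5 (1248) and Gimap8 (685.4, rank 1416) followed. Over the 24 libraries the ranges of Gimap3 and Gimap4 overlapped, as did those of Gimap6 and Gimap7, of Gimap7 and Gimap1, of Gimap1 and Gimap9, and of Gimap5 and Gimap8. The range of Gimap4, from 9376 to 18999 per kb, lay above that of Gimap6, whose highest value was 7297.5. The range of Gimap9, from 1950 to 4152 per kb, lay above that of Gimap5, whose highest value was 1742.

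The highest library was between 1.49 (Gimap6) and 2.67 (Gimap7) times the lowest. The SD of log2(value + 1) over the 24 libraries was between 0.17 (Gimap1) and 0.34 (Gimap7), against a median of 0.59 over the 16630 genes tested and 0.30 over the 4785 genes with a mean of at least 1000. Of the genes tested, 2.24% had a smaller SD than Gimap1 and 25.6% a smaller SD than Gimap7. Among the genes with a mean of at least 1000 these shares were 7.23% and 61.7%, and they were 43.7% for Gimap8 and 44.0% for Gimap4. Summed over the 8 genes, the level was between 110589 normalized counts in a young kTreg library and 178747 in an old kTreg library. The group means of this sum, each over 4 libraries, were 141002 ± 18900 (SD) in young rTreg, 129996 ± 11457 in young aTreg, 125080 ± 14752 in young kTreg, 131619 ± 10663 in old rTreg, 150068 ± 19875 in old aTreg and 158080 ± 16701 in old kTreg cells. The plot of the 8 genes by library shows these ranges gene by gene.

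**Figure D1:**
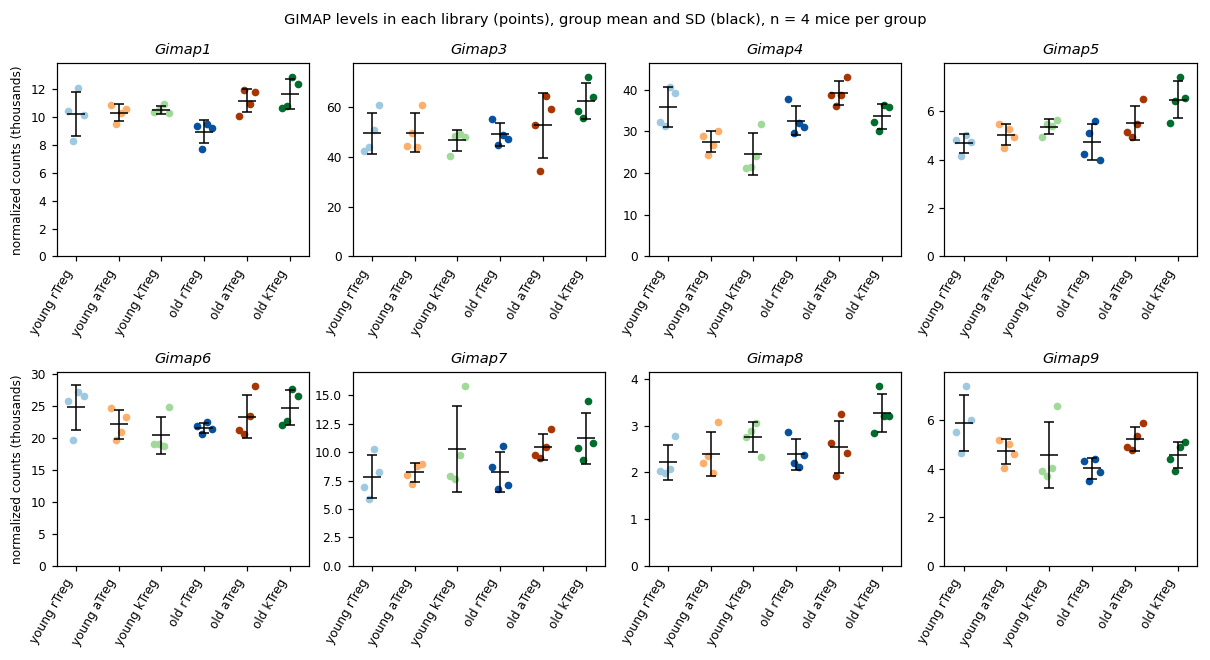
Normalized counts in units of 1000 (vertical axis, from 0) of each GIMAP gene in the 6 groups (horizontal axis), with each of the 4 libraries of a group as a point and the group mean and SD in black. Gimap4 was between 36121 and 42938 in old aTreg cells, above all young aTreg libraries, and Gimap9 was at most 4413 in old rTreg cells, below all young rTreg libraries.

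Between subsets, kTreg against rTreg cells gave the clearest differences, all of them small. Genes were called at an adjusted p below 0.05 (limma over 16630 genes, Benjamini-Hochberg) together with a fold change over 1.5, and 0 of the 8 GIMAP genes were called in this comparison, where 15.5% of all genes tested were called. At the adjusted p alone, which 22.8% of all genes passed, 5 of the 8 passed. Gimap1, Gimap5, Gimap7 and Gimap8 were higher in kTreg cells, where 12.5% of all genes passed in that direction, and Gimap4 was lower, where 10.3% did. With edgeR's quasi-likelihood test on the recovered reads and with DESeq2 the number called was also 0, where DESeq2 called 16.9% of all genes. In limma 5 of the 8 had an unadjusted p below 0.05, as did 34.3% of all genes. The median log2 fold change was 0.18 over the 8 genes and -0.01 over all genes tested. Markers of other cells moved with this comparison. In old mice the monocyte and macrophage genes summed to between 9813.5 and 25936 in rTreg and between 1712 and 2668.5 in kTreg libraries. The NK cell genes summed to between 1636 and 3158 in old rTreg and between 597.9 and 1494 in old kTreg libraries. In young mice the monocyte sums of rTreg (530.1 to 7713) and kTreg libraries (0 to 17261) overlapped, and so did the NK cell sums (397.5 to 947.1 and 397.5 to 685.7). At both ages the 2 measured endothelial genes were lower in kTreg than in rTreg cells, without overlap. Their sums were 913.7 to 1916.3 against 2703.9 to 3865.3 in young mice and 976.7 to 1161.5 against 2254.8 to 3334.4 in old mice. The 4 measured plasma cell genes were higher in young kTreg (7108.4 to 9460.2) than in young rTreg libraries (4614.9 to 5944.2). The 4 measured erythroid genes were lower in old kTreg (267.5 to 730.4) than in old rTreg libraries (753.8 to 2268). All further sums of other cells overlapped at each age. The part of these cells in the differences was not tested.

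Gimap5, the survival factor, had 4835, 4137.5, 5033 and 4729.5 normalized counts in the 4 young rTreg libraries and 4948, 5464, 5408 and 5663.5 in the young kTreg libraries of the same mice. In old mice it had 4250, 5094, 5620 and 3982 in rTreg and 5533, 6448, 7407 and 6566.5 in kTreg cells. The value was higher in kTreg than in rTreg cells in 8 of 8 mice. The fold was 1.26 (log2 fold change 0.33 ± 0.08 SE, limma adjusted p = 0.0051), and the adjusted p was between 0.0015 and 0.015 with each library left out in turn.

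Gimap8 was between 1980 and 2773 normalized counts in young rTreg and between 2110 and 2866 in old rTreg cells. It was between 2322 and 3059 in young kTreg and between 2855 and 3845 in old kTreg cells. It was higher in kTreg cells in 6 of 8 mice, 1.31-fold (0.39 ± 0.11, limma adjusted p = 0.016, and between 0.0067 and 0.039 with each library left out). Of the 5 genes that passed the adjusted p, Gimap5 and Gimap8 are the 2 that also passed in all 35 other fits, the 24 with 1 library left out and 11 with another setting.

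The other 3 were less firm. Gimap1 was 1.16-fold higher in kTreg cells (0.22 ± 0.07, limma adjusted p = 0.031) and higher in 6 of 8 mice, with an adjusted p between 0.0095 and 0.073 when a library was left out. Without young rTreg mouse 2 it did not pass (0.17, limma adjusted p = 0.073). Gimap7, a GTPase that works as a dimer, was 1.32-fold higher (0.40 ± 0.14, limma adjusted p = 0.048) and higher in 7 of 8 mice. Its adjusted p was above 0.05 in 19 of the 24 fits with a library left out, and without young kTreg mouse 4, whose value of 15786.5 was the highest of all, it was 0.082 at 0.29. Without young rTreg mouse 2 Gimap7 did not pass either (0.34, limma adjusted p = 0.10). Gimap4 was lower in kTreg cells (-0.26 ± 0.09, limma adjusted p = 0.034) in 5 of 8 mice, all 4 young mice and 1 old mouse. Its adjusted p was between 0.0037 and 0.081 with a library left out. Gimap3, Gimap6 and Gimap9 did not pass, at log2 fold changes of 0.14 ± 0.11, -0.04 ± 0.09 and -0.10 ± 0.11.

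In kTreg against aTreg cells 0 of the 8 genes were called (7.39% of all genes tested) and 0 passed the adjusted p alone (12.1%) with limma, and 2 had an unadjusted p below 0.05, as did 25% of all genes. The number called was 0 with edgeR and with DESeq2, where DESeq2 called 9.09% of all genes. The 2 genes were Gimap8 (0.30 ± 0.11, limma adjusted p = 0.10) and Gimap4 (-0.20 ± 0.09, limma adjusted p = 0.14), and Gimap4 was lower in kTreg cells in 7 of 8 mice. Without young kTreg mouse 4 the difference of Gimap4 was -0.26 ± 0.08 (limma adjusted p = 0.024). Without young aTreg mouse 4 or without old aTreg mouse 3 that of Gimap8 was 0.36 (limma adjusted p = 0.042 and 0.040). In aTreg against rTreg cells 0 were called (8.01% of all genes) and 0 passed the adjusted p alone (10.5%) with limma. In that comparison 1 had an unadjusted p below 0.05, namely Gimap1 at 0.17 ± 0.07, where 21.8% of all genes did. There 0 were called by edgeR or DESeq2, where DESeq2 called 9.32% of all genes. The 3 subset comparisons share libraries, since each subset serves in 2 of them, so their values are not independent of each other. The plot of fold changes sets the comparisons side by side.

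**Figure D2:**
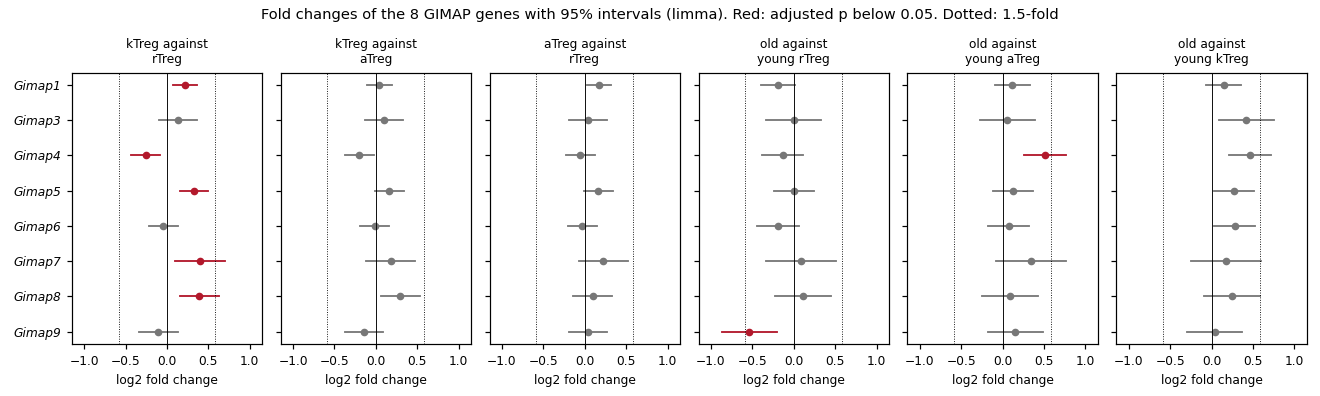
Log2 fold change of each GIMAP gene (points) with its 95% interval from limma (lines) in the 3 subset comparisons and in old against young cells of each subset. Red marks an adjusted p below 0.05, dotted lines mark a 1.5-fold change, and no point lies beyond them.

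With age, Gimap4 was higher in old aTreg cells and Gimap9 lower in old rTreg cells, each at the adjusted p alone. In old against young aTreg cells all 8 GIMAP genes had a log2 fold change above 0, or 5 of 8 with libraries rescaled to equal totals, and so did 50.9% of all genes tested. The median was 0.12 against 0.01 over all genes. In old against young kTreg cells all 8 were again above 0, or 7 of 8 with edgeR, and so were 60.3% of all genes, with a median of 0.26 against 0.12. In rTreg cells 3 of 8 were above 0, or 2 of 8 with TMM scaling, with a median of -0.07 against -0.08 over all genes.

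Old and young libraries did not overlap for 2 of the 8 genes in aTreg cells (Gimap4 and Gimap7), where 13.4% of all genes tested did not overlap. The same held for Gimap3 in kTreg cells, where 10.5% of all genes did not overlap, and for Gimap9 in rTreg cells, where 11.7% did not. In old against young rTreg, aTreg and kTreg cells edgeR and DESeq2 called 0 of the 8 genes. DESeq2 called 8.62%, 4.21% and 2.56% of all genes there. By limma 0 of the 8 were called too, where 5.83%, 2.71% and 1.26% of all genes were. At the adjusted p alone 1 passed in rTreg cells (6.7% of all genes), 1 in aTreg cells (3.05%) and 0 in kTreg cells (1.32%). An unadjusted p below 0.05 was reached by 1, 1 and 4 of the 8 genes in these subsets, and by 22.0%, 12.5% and 15.5% of all genes.

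Gimap4, which has been linked to T cell death, had 28938.5, 24340, 26672 and 30008 normalized counts in young aTreg cells and 38806, 36121, 38681 and 42938 in old aTreg cells. Every old library lay above every young one. The level was 1.43-fold higher in old aTreg cells (0.51 ± 0.12, limma adjusted p = 0.019). In kTreg cells it had 21190.5, 21352, 24019 and 31706 in young mice and 32241.5, 30042, 36226 and 35772 in old mice. Only young kTreg mouse 4 reached into the old range there. The level in kTreg cells was 1.38-fold higher in old mice (0.47 ± 0.12, limma adjusted p = 0.057), and 1.51-fold without that library (0.60 ± 0.12, limma adjusted p = 0.009). With DESeq2 the difference in kTreg cells was 0.45 (adjusted p = 0.023), and with edgeR the adjusted p was 0.11. In rTreg cells it had 32238, 31323, 40747 and 39086 in young mice and 37717, 29520.5, 32074 and 31097 in old mice, and the groups overlapped (-0.13 ± 0.12, limma adjusted p = 0.56). The result in aTreg cells did not rest on old aTreg mouse 2, without which it was 0.55 ± 0.13 (limma adjusted p = 0.032). The adjusted p was above 0.05 without young aTreg mouse 2 (0.083), young aTreg mouse 3 (0.055), old aTreg mouse 1 (0.051) or old aTreg mouse 4 (0.060), at log2 fold changes between 0.45 and 0.51. It was 0.051 with libraries rescaled to equal totals, at 0.43. The summed level of the 5 NK cell markers was also higher in old aTreg (1947 to 4470) than in young aTreg cells (985 to 1216), with none of the 5 at 0 throughout. The 4 Treg markers summed to between 13336 and 38404 in old aTreg and between 46711 and 51602 in young aTreg cells, and Foxp3 was between 5080 and 19813 in old and between 20351 and 25465 in young aTreg cells. Old and young libraries did not overlap in these sums or in Foxp3, which is 1 of the 4 Treg markers. Other markers were lower in old than in young aTreg cells, also without overlap. The 6 B cell genes summed to 489.7 to 808.1 in old and 919.8 to 8381.3 in young libraries. For the 2 CD8 T cell genes these were 171.5 to 268.1 and 339.2 to 1114.6, and for 2 measured endothelial genes 1025.5 to 1383.5 and 1387.3 to 2417.3. The part of all these markers in the result was not tested.

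Gimap9 had 5493, 4645, 7386.5 and 5999 normalized counts in young rTreg cells and 4305, 3468, 4413 and 3852 in old rTreg cells. Every old library lay below every young one. The level in old rTreg cells was 0.688 of that in young rTreg cells (-0.54 ± 0.16, limma adjusted p = 0.045). It was past the 1.5-fold limit and called without young rTreg mouse 2, at 0.639 of the young level (-0.65 ± 0.17, limma adjusted p = 0.020), and also without old rTreg mouse 3. The adjusted p was above 0.05 in 14 of the 24 fits with a library left out, and highest without young rTreg mouse 3 (0.19, at -0.42). In a model of only the groups compared it was 0.11 in limma. The monocyte and macrophage markers moved with this difference, as did the 3 measured platelet genes (450.6 to 981 in old and 42.2 to 73.8 in young rTreg libraries) and the 5 NK cell genes (1636 to 3158 and 397.5 to 947.1). The 4 measured plasma cell genes were also higher (8940 to 14566.8 in old and 4614.9 to 5944.2 in young rTreg libraries). The 2 CD8 T cell genes were lower (295 to 554.3 and 566.1 to 2184.5). Old and young rTreg libraries did not overlap in any of these sums, and their part in the result was not tested. In aTreg cells Gimap9 had 5182, 4036, 5012 and 4599 in young mice and 4906, 4778, 5362 and 5863 in old mice (0.15 ± 0.16, limma adjusted p = 0.84). In kTreg cells it had 3888, 3677, 4032 and 6577 in young mice and 4404, 3886, 4874 and 5082 in old mice (0.04 ± 0.16, limma adjusted p = 0.92). Both pairs of groups overlapped.

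In old against young kTreg cells Gimap3, Gimap5 and Gimap6 also had an unadjusted p below 0.05. Gimap3 was between 40487.5 and 49241 normalized counts in young kTreg cells and between 55635 and 72011 in old kTreg cells, without overlap (0.42 ± 0.16, limma adjusted p = 0.20). Gimap5 (0.27 ± 0.12) and Gimap6 (0.28 ± 0.12) had a limma adjusted p of 0.28 each, and their groups overlapped. Gimap7 in aTreg cells was between 7163 and 8982.5 in young mice and between 9498 and 12048 in old mice (0.34 ± 0.20, limma adjusted p = 0.56).

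The difference of the age effects between subsets was tested as an interaction. By limma 0 of the 8 genes were called for kTreg against rTreg cells (3.02% of all genes called, 3.05% at the adjusted p alone), 0 for aTreg against rTreg cells (1.56% and 1.58%) and 0 for kTreg against aTreg cells (0.156% by both rules). The medians over the 8 genes were 0.38, 0.26 and 0.09, against 0.21, 0.10 and 0.14 over all genes. An unadjusted p below 0.05 was reached by 4, 3 and 0 of the 8 and by 17.2%, 15.8% and 9.4% of all genes. edgeR called 0 of the 8 in each, and DESeq2 called 1, 1 and 0, where it called 5.1%, 3.75% and 0.806% of all genes. For Gimap4 the interaction was 0.60 ± 0.17 for kTreg against rTreg cells (limma adjusted p = 0.059) and 0.65 ± 0.17 for aTreg against rTreg cells (limma adjusted p = 0.058). Both are just outside the threshold. Since the 3 subsets of a mouse share its number, the mouse was also fitted as a replicate block, and with this block Gimap4 was called in both (adjusted p = 0.040 and 0.038 in limma). It was called in both with DESeq2 too (adjusted p = 0.032 and 0.017), and in both without young kTreg mouse 4, young rTreg mouse 2 or old rTreg mouse 1 (limma adjusted p between 0.009 and 0.038). It was called in 7 and 6 of the 36 fits, and its adjusted p was highest with young rTreg mouse 3 left out (0.14 and 0.15 in limma, at 0.54 and 0.58).

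The interaction of Gimap9 was 0.58 ± 0.23 for kTreg against rTreg cells (limma adjusted p = 0.18) and 0.69 ± 0.23 for aTreg against rTreg cells (limma adjusted p = 0.13). Without young kTreg mouse 4 it was 0.77 ± 0.19 (limma adjusted p = 0.019) and 0.69 ± 0.18 (limma adjusted p = 0.033) and was called in both. Gimap6 (0.47 ± 0.17, limma adjusted p = 0.15) and Gimap1 (0.33 ± 0.14, limma adjusted p = 0.23) were the other 2 with an unadjusted p below 0.05 for kTreg against rTreg cells. The interaction of Gimap6 was 0.57 without young rTreg mouse 2 (limma adjusted p = 0.048). Without the 2 libraries that stand apart it was 0.56 and passed, with a limma adjusted p that rounds to 0.05. For kTreg against aTreg cells the interaction of Gimap4 was -0.05, with a 95% interval from -0.40 to 0.31, and that of Gimap9 was -0.11, from -0.58 to 0.36.

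The same pattern can be read as subset differences within 1 age. In young mice Gimap4 was lower in kTreg than in rTreg cells in 4 of 4 mice, at 0.680 of the level (-0.56 ± 0.12, limma adjusted p = 0.0022, and between 0.00015 and 0.013 with each library left out). In a model of only the groups compared its adjusted p was 0.053 in limma. In old mice it differed by 0.04 ± 0.12 (limma adjusted p = 0.87). Gimap9 was at 0.761 of the rTreg level in young kTreg cells (-0.39 ± 0.16, limma adjusted p = 0.091), and at 0.666 without young kTreg mouse 4 (-0.59, limma adjusted p = 0.0034). Without young rTreg mouse 2 it was at 0.707 (-0.50, limma adjusted p = 0.041). In old kTreg cells it was higher than in rTreg cells in 4 of 4 mice (0.19 ± 0.16, limma adjusted p = 0.52). Gimap1 and Gimap5 differed at the adjusted p in old mice, each higher in kTreg than in rTreg cells in 4 of 4 mice. Gimap1 was 1.30-fold higher (0.38 ± 0.10, limma adjusted p = 0.017), and Gimap5 1.38-fold (0.46 ± 0.12, limma adjusted p = 0.013). Without old kTreg mouse 3 these were 0.34 (limma adjusted p = 0.067) and 0.39 (limma adjusted p = 0.057). In a model of only the groups compared the adjusted p in limma was 0.066 for Gimap1 and 0.079 for Gimap5. Gimap1 was also at 0.35 (limma adjusted p = 0.059) without old kTreg mouse 4, and Gimap5 at 0.38 (limma adjusted p = 0.052) without old rTreg mouse 4. Gimap1 was 1.25-fold higher in old aTreg than in old rTreg cells in 4 of 4 mice (0.33 ± 0.10, limma adjusted p = 0.042), and this passed in 14 of the 24 fits with a library left out. It was 0.29 without old aTreg mouse 2 (limma adjusted p = 0.12) and without both libraries that stand apart (limma adjusted p = 0.094), and its adjusted p was 0.14 in a model of only the groups compared. The monocyte and macrophage genes were between 117.1 and 239.2 in old aTreg libraries, below all old rTreg libraries. Also lower without overlap were the plasma cell (5749.9 to 7154.9 against 8940 to 14566.8) and platelet sums (55.4 to 130.2 against 450.6 to 981). So were the endothelial (1025.5 to 1383.5 against 2254.8 to 3334.4), erythroid (at most 422.6 against at least 753.8) and CD8 T cell sums (at most 268.1 against at least 295). The B cell, NK cell and neutrophil sums overlapped. The part of these cells in this difference was not tested. Without young kTreg mouse 4, 4 more differences passed the adjusted p. In young mice these were Gimap4 in aTreg against rTreg cells (-0.38, limma adjusted p = 0.090 with it and 0.035 without) and Gimap6 in kTreg against rTreg cells (-0.28 with adjusted p = 0.12 and -0.37 with 0.034, limma). In old mice these were Gimap9 in aTreg against rTreg cells (0.38, limma adjusted p = 0.14 and 0.041) and Gimap8 in kTreg against rTreg cells (0.46, limma adjusted p = 0.074 and 0.048). In the 3 of these that hold no young kTreg library, the value stayed as it was and the pooled spread was smaller. Gimap6 in young kTreg against rTreg cells also passed without young rTreg mouse 2 (-0.38, limma adjusted p = 0.026).

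Within groups the GIMAP genes did not all vary together. After the mean of each group was removed, Pearson's r between 2 genes over the 24 libraries was between -0.17 and 0.90, with a median of 0.49 over the 28 pairs. Gimap4, Gimap6, Gimap7 and Gimap9 formed the tightest set, with r between 0.76 and 0.90 in their 6 pairs. Gimap8 stood apart, with r of 0.72 with Gimap3 and between -0.17 and 0.12 with the other 6. Libraries of a mouse and the depth of a library are shared by all genes, so these are descriptions. Without the 2 libraries that stand apart, the 6 pairs of the set were between 0.67 and 0.84, the lowest of them Gimap6 with Gimap7. Gimap1 was then at 0.91 with Gimap9, 0.86 with Gimap6 and 0.76 with Gimap4. Gimap8 was at 0.69 with Gimap3 and between -0.22 (Gimap5) and 0.33 (Gimap4) with the other 6.

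**Figure D3:**
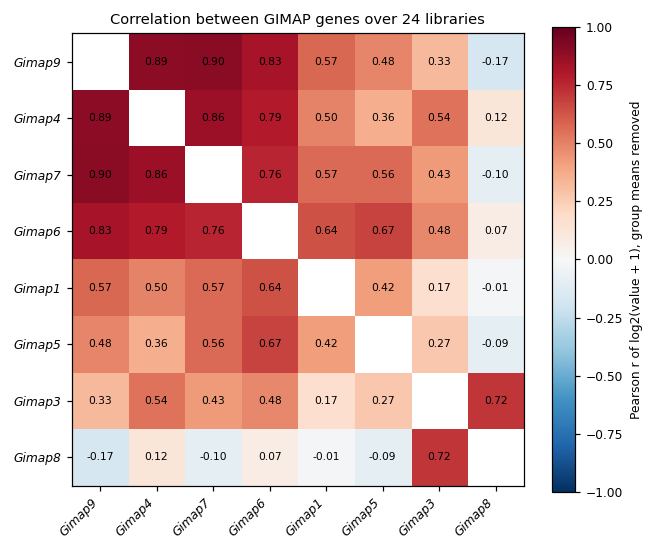
Pearson's r between the log2(value + 1) of each pair of GIMAP genes over 24 libraries, after the mean of each group was removed, as colour and number. Gimap9, Gimap4, Gimap7 and Gimap6 have r of at least 0.76 with each other, and the lowest value is -0.17, between Gimap8 and Gimap9.

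A ratio of 2 genes within a library does not depend on its size factor. Chosen after their values were seen, Gimap9 over Gimap7 and Gimap4 over Gimap3 are given as descriptions. The log2 ratio of Gimap9 to Gimap7 was between -0.48 and -0.34 in the 4 young rTreg libraries and between -1.57 and -0.62 in the other 20. The group medians were -0.40 in young rTreg, -0.82 in young aTreg, -1.16 in young kTreg, -0.98 in old rTreg, -0.99 in old aTreg and -1.25 in old kTreg cells. Young rTreg cells were thus set apart from old rTreg cells, which had ratios between -1.26 and -0.88. Young kTreg mouse 4, the highest of its group in both genes, had a ratio between those of the other mice of its group. The log2 ratio of Gimap4 to Gimap3 had medians of -0.45 in young rTreg, -0.87 in young aTreg, -0.98 in young kTreg, -0.60 in old rTreg, -0.45 in old aTreg and -0.87 in old kTreg cells. Old aTreg mouse 2 had the highest, 0.07.

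**Figure D4:**
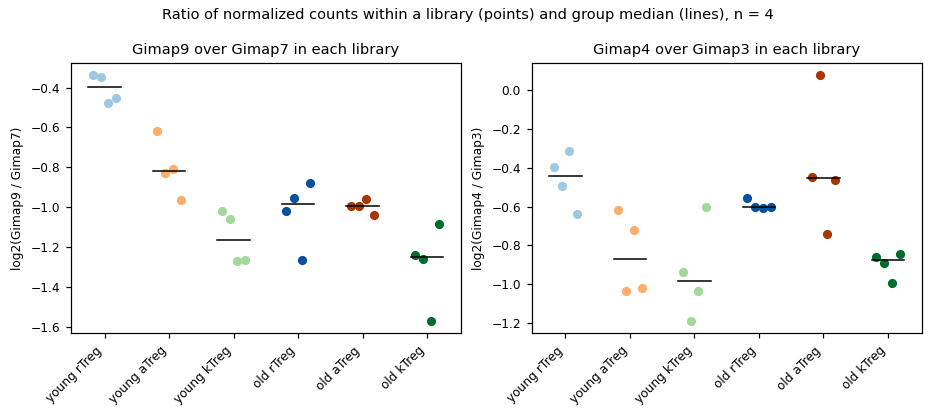
Log2 ratio of the normalized counts of Gimap9 to Gimap7 (left) and of Gimap4 to Gimap3 (right) in each library (points), with the median of each group of 4 (lines). On the left the young rTreg libraries, between -0.48 and -0.34, lie above all others.

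The flanks of the locus set the family in context. Within 300 kb of the cluster 20 other genes had a row, all 20 were tested, and 8 of them were called in at least 1 of the 9 comparisons, where the GIMAP genes were called in none. Single comparisons called between 0.156% and 15.5% of all genes tested. The share of all genes called in at least 1 of the 9 was not counted, so these counts are descriptions. Tmem176b and Tmem176a, which encode paired membrane proteins and lie 61.3 and 70.0 kb past Gimap3, were called in 5 comparisons each. Tmem176a was between 834.1 and 1465 normalized counts in young aTreg and between 7655 and 27429 in old aTreg cells, a fold of 12.9 (log2 3.69 ± 0.48, limma adjusted p = 0.00013). Tmem176b was between 1056 and 2492 in young aTreg and between 9614 and 26730 in old aTreg cells, a fold of 10.7 (3.41 ± 0.37, limma adjusted p = 2e-05). Both were also higher in old than in young rTreg cells (2.75 ± 0.48 and 2.47 ± 0.37) and kTreg cells (3.44 ± 0.48 and 2.88 ± 0.37, limma adjusted p at most 0.001 in each). Old aTreg mouse 2 had the highest value of both, and also the highest NK cell sum of all libraries (4470). The monocyte and macrophage genes summed to between 117.1 and 239.2 in old aTreg libraries, with 1 of the 5 at 0 in all 4. In rTreg libraries they summed to between 9813.5 and 25936 in old and between 530.1 and 7713 in young mice. The part of these cells in the differences of Tmem176a and Tmem176b was not tested. The other 6 called were Aoc1 (6 comparisons), Repin1 and Sspo (2 each), and AI854703, Gm10243 and Gm28053 (1 each). Aoc1 and Sspo were low, with means of 22.0 and 81.9 normalized counts over the libraries.

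**Figure D5:**
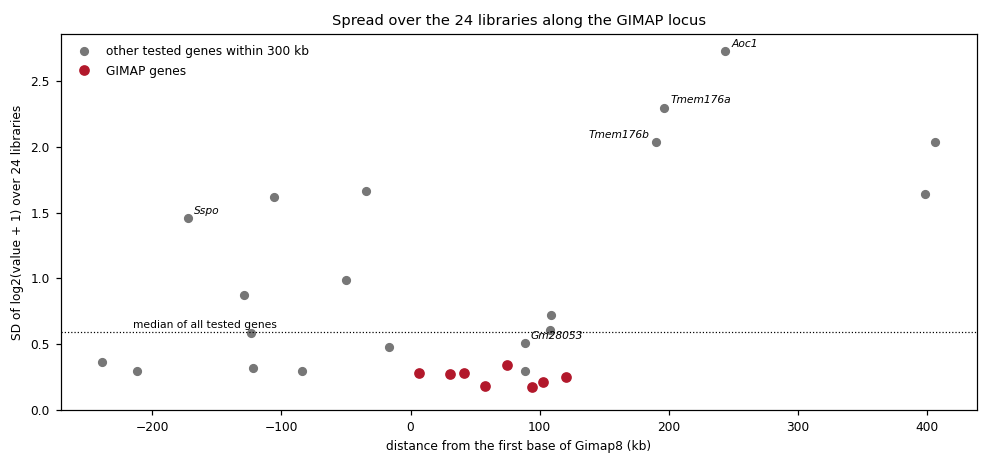
SD of log2(value + 1) over the 24 libraries (vertical axis) against the distance of each gene's middle from the first base of Gimap8 (horizontal axis, kb), for the GIMAP genes (red) and the other tested genes within 300 kb (grey). The GIMAP genes lie between 0.17 and 0.34, below the median of all tested genes (dotted, 0.59), while Tmem176a and Tmem176b lie at 2.29 and 2.03. Over genes with a mean of at least 1000 the median, not drawn, is 0.30, and Gimap7 lies above it.

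Some rows share exon bases with the GIMAP genes. Gimap1os, an antisense RNA, overlaps 39.1% of the exon bases of Gimap1, and the strand setting of the counting is not given in the sources used here, so reads of the pair cannot be told apart. Gimap1os had between 464.1 and 1128.5 normalized counts, and its differences were between -0.36 and 0.50 in the 9 comparisons, none called. Gm28053, a readthrough gene on the same strand, overlaps between 3.48% and 5.80% of the exon bases of Gimap7, Gimap5 and Gimap1. It was between 101.7 and 378.5 normalized counts, far below these genes. It was called in kTreg against rTreg cells (1.91-fold, 0.93 ± 0.19, limma adjusted p = 0.00074), the comparison in which Gimap1, Gimap5 and Gimap7 were higher.

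The promoters of Gimap4 and Gimap9 are shown because these 2 genes passed the adjusted p with age. Gimap4 was higher in old aTreg and Gimap9 lower in old rTreg cells, where 3.05% and 6.7% of all genes passed. Neither was called with all libraries in the fit. Within groups their levels moved together (r = 0.89). The 250 bases before the start of the annotated main transcript follow, on the plus strand of GRCm39. Capitals mark a match to the RUNX motif, searched on both strands as TGTGGT, which reads ACCACA on the other strand.
Gimap4, chr6:48661229-48661478: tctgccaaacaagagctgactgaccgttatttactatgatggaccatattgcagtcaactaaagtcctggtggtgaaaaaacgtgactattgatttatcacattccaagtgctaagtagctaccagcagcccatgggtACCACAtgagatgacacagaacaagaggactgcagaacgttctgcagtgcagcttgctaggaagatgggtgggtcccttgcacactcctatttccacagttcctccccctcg
Gimap9, chr6:48652799-48653048: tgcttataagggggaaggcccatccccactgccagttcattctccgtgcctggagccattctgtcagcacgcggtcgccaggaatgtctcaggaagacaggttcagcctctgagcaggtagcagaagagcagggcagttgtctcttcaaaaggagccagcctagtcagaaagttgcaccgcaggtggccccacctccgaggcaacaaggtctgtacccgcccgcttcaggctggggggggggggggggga
In windows from 250 bases before to 50 bases after the start, the RUNX letters were found for Gimap1 (2 matches), Gimap4 and Gimap7, 3 of the 8 genes, and in 14.1% of 12919 promoters. The FOXO letters TGTTTAC were found for Gimap3 alone, and in 2.79% of all promoters. The ETS letters CCGGAAG (15.4% of promoters), KLF letters GGGTGTG (8.49%) and TCF letters CTTTGAT (2.62%) were found for none of the 8. RUNX, FOXO, KLF and TCF factors are known regulators of T cells, and a match here is a description of letters.

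Genes with related roles were counted over lists written by hand. Of 13 genes of apoptosis and survival, 4 were called higher and 1 lower in kTreg than in rTreg cells, the latter Bcl2 (-2.08 ± 0.14), an inhibitor of cell death. Those higher were Bcl2l1 (1.07 ± 0.10), also an inhibitor, and Apaf1, Bid and Pmaip1, which promote cell death. Of all genes tested, 9.37% were called higher and 6.09% lower in this comparison. Of 12 genes of autophagy and the ATG8 family, 1 was called higher, Gabarapl1 (0.59 ± 0.13). Gabarapl2, which encodes the partner of Gimap6, was at -0.07 ± 0.13 in kTreg against rTreg cells. Of 15 interferon-inducible GTPases, a family of other GTP-binding proteins, Gbp5 and Gbp7 were called higher and Tgtp1 lower. In old against young aTreg cells, where Gimap4 was higher, Gabarapl2 was higher too (1.00 ± 0.18, limma adjusted p = 0.0025), and 2 of the 15 interferon-inducible GTPases, Tgtp1 and Tgtp2, were called higher, as were 1.85% of all genes. Old aTreg mouse 2 and the NK cell markers bear on this comparison as given above.

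By a fixed rule, the 10 genes with the highest Pearson's r to the mean of the 8 centred GIMAP profiles over the 24 libraries were listed. H2-K1, an MHC class I gene, came first (r = 0.81), followed by Gbp8 (0.75), H2-K2 (0.74), Tk2 (0.74), Rrad (0.73), H2-M3 (0.71), H2-T23 (0.71), Pglyrp2 (0.71), Zkscan3 (0.69) and 4930512B01Rik (0.68). H2-K2, H2-M3 and H2-T23 also belong to the MHC class I genes, a family of like sequences between which reads may be split. Without the 2 libraries that stand apart, r was 0.85 for H2-K1 and between 0.67 and 0.76 for the other 9. The libraries share mice and depth, so this is a description of likeness over 24 libraries.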

How the data were processed

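RNA of the 24 sorted samples was made into cDNA with SMART-Seq v4, which adds no molecular identifiers, and sequenced as paired reads of 150 bases. The authors aligned the reads to GRCm39 with HISAT2 2.2.1, handled them with SAMtools 1.13, counted them per gene with HTSeq-count 1.99.2 and used DESeq2 1.44.0. The deposited values form a signal that the authors had normalized, each count divided by 1 size factor per library. The annotation release and the strand setting are not given in the sources used here. The other deposited table repeats the sample labels and holds no measurement, so it was not used. Whole reads were recovered from the steps between values: 100.0% of values came out whole within 0.001 reads, and each library had between 15045747 and 29521942 reads on listed genes. Intervals from reads would cover counting error only, so errors are SDs over mice or the SEs of the fit. Of the identifiers, 17353 matched GENCODE M39, 111 did not, and 0 columns were left without a sample.

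Group differences were fitted by limma (version 3.58.1, under R 4.3.3), which modelled 6 groups on log2(value + 1) with its trend option. The 16630 genes that reached 10 in 4 or more libraries entered, and p was adjusted by Benjamini-Hochberg. Subset contrasts weigh both ages equally. Fold changes are on the log2(value + 1) scale. Alternatives were a pseudocount of 0.5 or 5, a filter at 50 or none, the mouse as a replicate block, a model of only the groups compared, TMM scaling, equal totals, edgeR 4.0.16 and DESeq2 1.42.0 on recovered reads, other call rules, each library left out, and both libraries that stand apart left out. The limma fit was tested on simulated data, with changes larger than any of the GIMAP genes, in kTreg against aTreg cells alone. That test cannot tell how well changes as small as those given here are found.

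The series design gives 4 young and 4 old mice as the source of all 3 subsets, and the labels number the libraries of each subset from 1 to 4 within an age, so the number was taken to mark the mouse and to pair libraries. Deviations from group means correlated between libraries of a mouse with medians of 0.12 (aTreg and kTreg), 0.15 (rTreg and aTreg) and 0.09 (rTreg and kTreg), against -0.05, -0.03 and -0.03 between mice, and the consensus correlation was 0.062.

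Named genes are the 8 GIMAP genes, others starting with Gimap, genes within 300 kb, the 10 most alike and list genes called or used as examples. The members and lists were chosen with earlier results of these data known. Coding and promoter sequences were read from GRCm39 with GENCODE M39 transcripts. Identity is over the columns of a global alignment (Biopython 1.88), with inner gaps counted and end gaps left out. Python 3.11.15 with numpy 2.4.6, pandas 2.3.3 and matplotlib 3.10.9 was used for the rest. A gene of the sort, and the gene list that holds it, are not reported here.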

Additional observations from a re-analysis of the deposited data

Results flagged for a closer look

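Of the 48 combinations of a GIMAP gene and a group of 4 libraries, 5 held a library whose gap to the nearest of the others took more of the range of the group than Dixon's limit at 95% allows. Chance alone gives this in about 1 of 20 groups. In young kTreg mouse 4, Gimap6 was 24783 normalized counts against 18804 to 19092 in the other 3 mice, and Gimap9 was 6577 against 3677 to 4032. In young kTreg mouse 1, Gimap3 was 40487.5 (others 48199 to 49241). In old rTreg mouse 2, Gimap1 was 7685 (others 9200 to 9481). In young rTreg mouse 4, Gimap8 was 2773 (others 1980 to 2067).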

How the results depend on the processing

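The 35 other fits were 24 with 1 library left out and 11 with another setting. Under them 0 GIMAP genes were called in kTreg against aTreg, kTreg against rTreg and aTreg against rTreg cells, in old against young aTreg cells, and in the interaction of kTreg against aTreg cells. No difference with an unadjusted p below 0.05 changed sign. At the adjusted p alone the counts were 5 in kTreg against rTreg cells and 1 each in old against young rTreg and aTreg cells, and with an unadjusted P and 1.5-fold they were 1 and 2 in the interactions of kTreg and aTreg against rTreg cells. With the mouse as a replicate block 1 gene was called in each of these interactions, with DESeq2 1 in each, with equal library totals 1 for kTreg against rTreg cells, and without the 2 libraries that stand apart 2 in each. Without those 2 libraries 1 was called in old against young kTreg cells, and by the adjusted p alone 3 and 2 passed in the interactions and 1 in kTreg against aTreg cells. By the adjusted p alone, equal totals gave 1 in aTreg against rTreg, 0 in old against young aTreg and 1 in old against young kTreg cells, DESeq2 gave 1 in the last, and a model of only the groups compared gave 2 in kTreg against rTreg and 0 in old against young rTreg cells. With 1 library left out, the number called was between 0 and 1 in old against young rTreg and kTreg cells and between 0 and 2 in the interactions of kTreg and aTreg against rTreg cells. The number past the adjusted p alone was then between 0 and 1 in kTreg against aTreg cells and in old against young rTreg, aTreg and kTreg cells, between 2 and 5 in kTreg against rTreg cells, and between 0 and 2 in these interactions. The block changed no other call. For the limma fits with another setting or with libraries left out, no share of all genes is given beside the counts, here or above. Whether these changes are particular to the GIMAP genes or shared by genes in general was therefore not tested, and neither was their cause. Over all genes, old against young kTreg cells gave 170 genes called higher and 39 lower with limma, 74 and 35 with edgeR and 248 and 178 with DESeq2, and old against young aTreg cells 308 and 143 with limma and 440 and 260 with DESeq2. With 1568 or more reads behind each value of a GIMAP gene, the SE of a difference was between 0.07 and 0.29 on the log2 scale.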
